A study of Homo sapiens with 12 samples.

Results

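The replication-dependent and linker histone genes were followed while RUES2 cells, an established line of human embryonic stem cells, were differentiated in culture towards airway epithelium. Members were the probe sets whose current gene symbol begins with H1- and a digit, H2AC, H2BC, H3C or H4C, and 62 of the 23786 probe sets chosen by this rule are described. They comprised 10 linker histone (H1) genes, 13 H2A genes, 17 H2B genes, 11 H3 genes and 10 H4 genes, 3 of these 61 being transcribed pseudogenes (H2BC20P, H1-9P and H2AC2P). The remaining member, H1-10-AS1, is an antisense RNA that met the rule by its name only and makes no histone. Of the members 48 lie in the histone cluster at 6p22, 6 at 1q21, 2 at 1q42 and 6 elsewhere.

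Whole-transcript Affymetrix arrays were hybridised with total RNA, 1 array per sample and 12 in all. In the order of the culture they were 2 arrays of undifferentiated RUES2 cells (day 0), 2 of early lung progenitors purified by high CD47 (day 15), 2 of airway progenitors (day 22), and 3 each of the late cells that did (SCGB3A2+) or did not (SCGB3A2-) carry SCGB3A2 when sorted at day 36. SCGB3A2 is a secretoglobin of airway secretory cells. All groups came from the same line. The labels name no sort for day 0 and day 22. They also do not say whether the replicates of a group were separate cultures, so every p-value here reflects the spread between arrays, which may be technical.

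Replication-dependent histone genes are transcribed in S phase, when newly made DNA has to be packaged. Most of their messages end in a stem-loop that is bound by the protein SLBP instead of a poly(A) tail, and they are lost when replication stops. Linker histone H1 sits outside the nucleosome core and compacts chromatin. Some H2B and other genes of the clusters can also give polyadenylated messages in differentiating cells.

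Levels are RMA log2 values and are not comparable between probe sets. A difference is the mean of the group named first minus that of the second, on the log2 scale, and is followed by ± its limma standard error (SE). A difference was called at a limma adjusted p under 0.05 over all probe sets. A member was counted as above the dim floor if its highest group mean exceeded 2.96, the 40th percentile of all values on all arrays. A gene could thus pass through only the groups where it was high. Of the members, 44 passed while 18 stayed at the floor. Those at the floor included H1-1 and the germ line genes H1-6, H1-7 and H2BC1, whose levels stayed at 2.47 or less on every array. Members above the floor also averaged under 2.96 in some groups, and the size of a difference that ends there is uncertain. Among these are H4C2 at day 22, H3C2 and H2BC6 in SCGB3A2+ cells and H2BC18 in SCGB3A2- cells. Histone paralogs are nearly identical in sequence, so a probe set may also read its close relatives, and how far it does was not tested.

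The labels were set against markers. SCGB3A2 stood at 9.04, 9.39 and 8.89 in SCGB3A2+ cells, against 2.19, 2.70 and 2.06 in SCGB3A2- cells. The stem cell genes POU5F1, DPPA4, L1TD1 and LIN28A had their highest group mean at day 0, with DPPA4 at 8.57 there and 2.42 or less in every other group. The others were less clear. POU5F1 averaged only 4.38 at day 0, LIN28A 8.07 at day 0 and still 5.43 at day 15, and L1TD1 10.13 at day 0 and 6.94 in SCGB3A2- cells. The lung and airway genes NKX2-1, CPM, SFTPB and SCGB1A1 averaged 6.88, 9.95, 11.85 and 5.85 at day 22, against 2.97, 2.53, 3.23 and 3.83 at day 0. By contrast, SCGB3A2 stood at 6.01 and 5.57 at day 22, against 7.24 and 7.05 at day 0. The day 0 arrays were the least alike pair (r = 0.979 across probe sets) and had the lowest array weight (0.455), and some members differed widely between them: H1-5 stood at 7.73 and 5.56, and H2AC13 at 7.16 and 5.43. Among SCGB3A2+ arrays, A was lower than B by a median of 0.41 over the 44 members above the floor. 

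Promoter sequences were available for 54 members, from RefSeq on GRCh38.p14, as windows of 300 bases running from 250 before to 50 after the start. CCAAT, the box bound by NF-Y, occurred on either strand in 12 of 12 H2A, 16 of 16 H2B and 9 of 9 H3 windows, in 8 of 9 H1 and in 2 of 8 H4 windows, against 35.7% of all 27305 promoters. The octamer ATTTGCAT, which the POU factor POU2F1 reads at H2B genes, was found in 12 of 16 H2B and 9 of 12 H2A windows and in 1.8% of all promoters. The H1 box AAACACA was present in 7 of 9 H1 windows and 5.76% of all promoters. GGTCCG, the core of the H4 promoter element, was present in 7 of 8 H4 windows and 11.2% of all promoters, and the TATA box TATAAA in 36 of these 54 windows and 12% of all. A match describes the letters only. All motifs were searched on both strands, and GGTCCG can overlap the reverse of CCAAT. The windows of divergent H2A and H2B pairs overlap, so a match can count for both partners and the family counts are not independent.

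The sequences of 5 genes with contrasting courses and of 2 divergent H2A and H2B pairs are shown. For single genes these are the 200 bases before the start, and for pairs the whole stretch between the starts. H4C4 and H4C2 had the 2 largest increases at day 15, H2BC12 and H2BC5 were higher at day 22, and H1-2 is a linker histone that was lower in SCGB3A2+ cells. The H2BC21 and H2AC20 pair moved in opposite directions between the day 36 sorts, and the H2AC14 and H2BC14 pair in the same direction. H2AC14 was at the floor in every group. Capitals mark the CCAAT box, the TATA box, the octamer, the H1 box and the H4 core on either strand in the single genes, and the first 3 of these motifs in the pairs.
H4C4 (chr6:26189113-26189312, minus strand): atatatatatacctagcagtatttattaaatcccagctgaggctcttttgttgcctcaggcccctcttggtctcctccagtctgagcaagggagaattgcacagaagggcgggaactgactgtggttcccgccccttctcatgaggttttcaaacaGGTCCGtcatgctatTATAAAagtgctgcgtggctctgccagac
H4C2 (chr6:26027284-26027483, minus strand): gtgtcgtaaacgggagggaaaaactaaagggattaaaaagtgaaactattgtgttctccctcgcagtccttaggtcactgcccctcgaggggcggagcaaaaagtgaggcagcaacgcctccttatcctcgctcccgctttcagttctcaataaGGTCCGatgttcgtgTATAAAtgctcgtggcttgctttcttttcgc
H2BC12 (chr6:27146859-27147058, minus strand): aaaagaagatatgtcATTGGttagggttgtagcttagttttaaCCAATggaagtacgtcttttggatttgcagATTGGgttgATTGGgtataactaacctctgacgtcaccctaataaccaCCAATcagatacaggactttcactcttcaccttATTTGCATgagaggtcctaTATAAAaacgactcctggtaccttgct
H2BC5 (chr6:26157921-26158120, plus strand): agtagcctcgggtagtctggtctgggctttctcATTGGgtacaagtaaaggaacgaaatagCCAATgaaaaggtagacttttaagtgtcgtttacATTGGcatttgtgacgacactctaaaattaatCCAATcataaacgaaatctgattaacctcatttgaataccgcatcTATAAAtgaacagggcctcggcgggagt
H1-2 (chr6:26056471-26056670, minus strand): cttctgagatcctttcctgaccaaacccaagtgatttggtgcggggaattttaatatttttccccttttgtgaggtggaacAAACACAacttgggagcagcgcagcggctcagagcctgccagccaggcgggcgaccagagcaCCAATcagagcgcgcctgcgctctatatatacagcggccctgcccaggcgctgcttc
H2BC21 to H2AC20 (chr1:149886683-149886917, plus strand): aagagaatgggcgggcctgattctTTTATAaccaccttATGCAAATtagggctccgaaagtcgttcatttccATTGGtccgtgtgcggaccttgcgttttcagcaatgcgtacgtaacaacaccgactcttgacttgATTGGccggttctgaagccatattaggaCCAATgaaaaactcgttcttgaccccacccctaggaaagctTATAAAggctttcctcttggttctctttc
H2AC14 to H2BC14 (chr6:27814778-27815021, plus strand): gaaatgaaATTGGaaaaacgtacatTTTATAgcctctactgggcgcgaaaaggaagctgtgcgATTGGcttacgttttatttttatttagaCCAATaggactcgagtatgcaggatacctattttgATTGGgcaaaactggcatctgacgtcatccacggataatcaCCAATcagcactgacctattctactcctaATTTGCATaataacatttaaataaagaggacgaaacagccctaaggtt

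Across the 5 groups, 40 of the 62 members differed in limma's moderated F-test, against 51.3% of all probe sets, and 37 of these 40 were above the floor. The group means of 34 of the 40 spanned at least 1 on the log2 scale. Day 15 had the highest mean for 24 of them, day 0 for 6, SCGB3A2+ cells for 4, SCGB3A2- cells for 5 and day 22 for 1. SCGB3A2+ cells had the lowest mean for 25, day 0 for 7, day 15 for 5, day 22 for 2 and SCGB3A2- cells for 1. Over all probe sets that differed, day 15 had the highest mean for 21% and SCGB3A2+ cells the lowest for 24.8%.

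**Figure D1:**
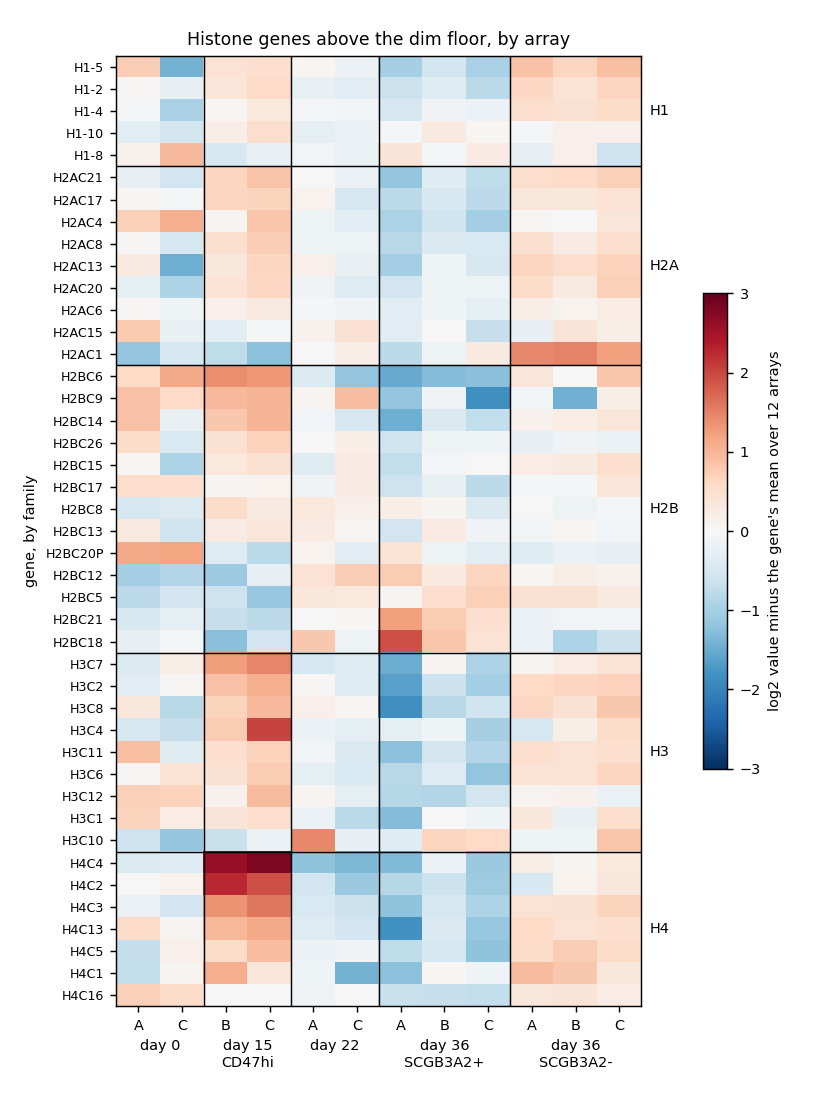
Levels of the 43 histone genes above the floor on each of the 12 arrays, as the log2 value minus the gene's own mean over the arrays (red above, blue below). Columns are arrays by group and replicate letter, and rows are genes by family. Most H2A, H3 and H4 rows are red at day 15 and in SCGB3A2- cells and blue in SCGB3A2+ cells, while H2BC12, H2BC5, H2BC21 and H2BC18 are not.

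At day 15, 15 members were higher and 4 lower than at day 0, against 31.5% of all probe sets called in either direction (16.2% higher and 15.3% lower). The median difference was 0.27 over the members and -0.05 over all probe sets. H4 genes led: H4C4 stood at 9.04 and 9.22 at day 15, against 6.01 and 6.03 at day 0 (3.10 ± 0.29, adjusted p = 9.88e-06). H4C2 stood at 5.34 and 4.99 at day 15, against 3.08 and 3.18 at day 0 (2.04 ± 0.27, adjusted p = 0.000119). H4 pairs with H3 at the centre of the nucleosome. Neither gene's arrays overlapped between the groups.

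H4C3 was higher as well, at 9.87 and 10.08 at day 15, against 8.34 and 7.95 at day 0 (1.83 ± 0.22, adjusted p = 5.66e-05). H3C4, a gene of canonical H3, stood at 6.84 and 8.11 at day 15, against 5.60 and 5.38 at day 0 (1.98 ± 0.42, adjusted p = 0.00331), with the day 15 C array well above B. H3C7 differed by 1.47 ± 0.38 (adjusted p = 0.0119), but its adjusted p was 0.0812 without day 0 A and 0.0699 without day 15 C. By family, the increases comprised 4 of 10 H4 genes, 3 of 11 H3 genes, 4 of 13 H2A genes, 1 of 17 H2B genes and 3 of 10 linker histone genes. The H2A genes H2AC20 (1.13 ± 0.23) and H2AC21 (1.16 ± 0.23), which lie next to each other at 1q21, were among them.

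The 4 decreases were of other kinds. The pseudogene H2BC20P stood at 5.02 and 4.59 at day 15, against 6.55 and 6.58 at day 0 (-1.76 ± 0.24, adjusted p = 0.000162). H4C16, the H4 gene that lies apart from the clusters, was lower by 0.64 (SE 0.13, adjusted p = 0.00286), whereas 4 of the 9 clustered H4 genes were called higher and 0 lower, and its adjusted p was 0.0506 when only the arrays compared were fitted. The oocyte linker histone H1-8 (-0.89 ± 0.29) lost its call without day 0 C (adjusted p = 0.297), day 15 B (0.177) or day 15 C (0.0694), and H1-1 (-0.48 ± 0.14), at the floor in both groups, without day 0 C (0.0539) or day 15 C (0.139). The number of members called was 19 with all arrays, 28 without day 0 A and 11 without day 15 C, and 8 of the 19 calls held under every alternative. Those 8 were H4C4, H4C2, H4C3, H3C4, H2AC20, H2AC21, H1-10 and H2BC20P.

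Genes of DNA replication are set beside the histone genes for day 15 and day 0. Of 41 S phase genes, 4 were higher and 14 lower at day 15 than at day 0, and the median over these genes was 6.45 and 6.55 on the day 15 arrays, against 6.89 and 6.49 on the day 0 arrays. Over all 10 H4 genes, those at the floor included, the median difference between day 15 and day 0 was 0.90, against -0.43 over the 41 S phase genes. H4 was the family with the largest median. It was 0.38 for H3, 0.26 for H2A, 0.15 for H1 and 0.08 for H2B genes, and 0.27 over all members. POLE2, a subunit of a replicative polymerase, was lower by 1.45 (SE 0.22, adjusted p = 0.000405), and CDC6, which loads the replicative helicase, by 1.21 (SE 0.20), whereas the kinase gene CDK2 was higher by 1.33 ± 0.15. The proliferation marker MKI67 stood at 7.64 and 7.78 at day 15, against 8.18 and 8.06 at day 0, and did not pass (adjusted p = 0.219).

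Of 22 genes of the histone locus body and of histone pre-mRNA processing, 5 were higher and 5 lower at day 15 than at day 0. SLBP, whose protein binds the stem-loop, stood at 6.92 and 6.81 at day 15, against 5.61 and 5.41 at day 0 (adjusted p = 3.07e-05). NPAT, the co-activator that gathers at histone loci, stood at 6.31 and 6.41 at day 15, against 7.19 and 7.59 at day 0 (-1.03 ± 0.15). The 2 genes therefore moved in opposite directions. Of 30 histone chaperone and deposition genes 1 was higher and 11 were lower, among them NAP1L3 (-3.25 ± 0.33) and CHAF1A, a subunit of the factor that deposits new H3 and H4 behind the fork (-1.24 ± 0.18).

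**Figure D2:**
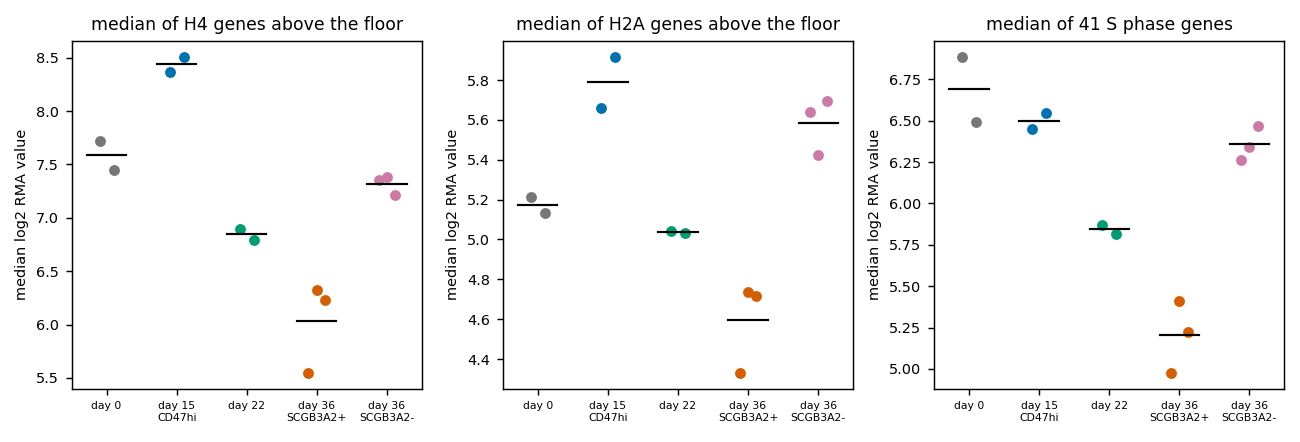
Median log2 value on each array (points, with group means as bars) over the H4 genes above the floor, the H2A genes above the floor and the 41 S phase genes. The H4 and H2A medians are highest at day 15 and the S phase median at day 0 on array A, and all 3 are lowest on the SCGB3A2+ arrays. The H4 and H2A sets were filtered on the highest group mean. They hold genes, such as H4C1 and H2AC17, that passed only through day 15 and SCGB3A2- cells, so their medians are no test between groups.

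At day 22, 4 members were higher and 18 lower than at day 15, against 19.5% of all probe sets (8.95% higher and 10.6% lower). The median difference was -0.36 over the members and -0.01 over all probe sets. This comparison shares the day 15 arrays with the preceding one, so the values are set side by side and no agreement is drawn from them. H4C4 stood at 5.22 and 5.06 at day 22, against 9.04 and 9.22 at day 15 (-3.98 ± 0.29, adjusted p = 3.36e-06). H4C2 fell to 2.48 and 1.96 at day 22, against 5.34 and 4.99 at day 15 (-2.94 ± 0.27).

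H2BC6, a clustered H2B gene, stood at 3.35 and 2.58 at day 22, against 5.16 and 5.06 at day 15 (SE of the difference 0.29, adjusted p = 0.000359). H4C3 (-2.01 ± 0.22), H3C7 (-1.82 ± 0.38) and H4C13 (-1.55 ± 0.33) were lower too, and these 6 decreases held under every alternative. H3C4 was lower by 1.62 (SE 0.42, adjusted p = 0.0175), but at adjusted p = 0.171 without day 15 C, 0.0666 without day 22 A and 0.0877 without day 22 C. The decreases took in 5 of 10 H4, 4 of 11 H3, 5 of 13 H2A, 2 of 17 H2B and 2 of 10 linker histone genes. Of the 41 S phase genes 13 were lower and 0 higher, and of the 22 processing genes 8 were lower and 0 higher.

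A pair of H2B genes moved the other way and kept their calls under every alternative. H2BC12 stood at 8.04 and 8.35 at day 22, against 6.53 and 7.36 at day 15 (1.25 ± 0.25, adjusted p = 0.00388). H2BC5 stood at 4.45 and 4.44 at day 22, against 3.50 and 2.98 at day 15 (1.21 ± 0.22, adjusted p = 0.00229). Both are known to give polyadenylated messages in differentiating cells, but so are H2BC21, H1-2, H2AC6 and H4C16. Of these 6 measured members, 3 were higher and 1 lower at day 22 than at day 15, the last being H1-2 (-0.76). The printed promoters of H2BC12 and H2BC5 hold the CCAAT and TATA boxes, and the octamer appears in that of H2BC12 and not in that of H2BC5. H2BC21 (0.75 ± 0.20) and the testis gene H2AC1 (1.08 ± 0.31) were also called but not without day 22 A (adjusted p = 0.0751 and 0.074), day 22 C (0.101 and 0.153) or day 15 C (0.116 and 0.202), nor, for H2BC21, without day 15 B (0.0732). Leaving out day 22 C or day 15 C gave 9 called members in place of 22, leaving out day 22 A gave 13, and taking the replicate letter as a block gave 12.

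**Figure D3:**
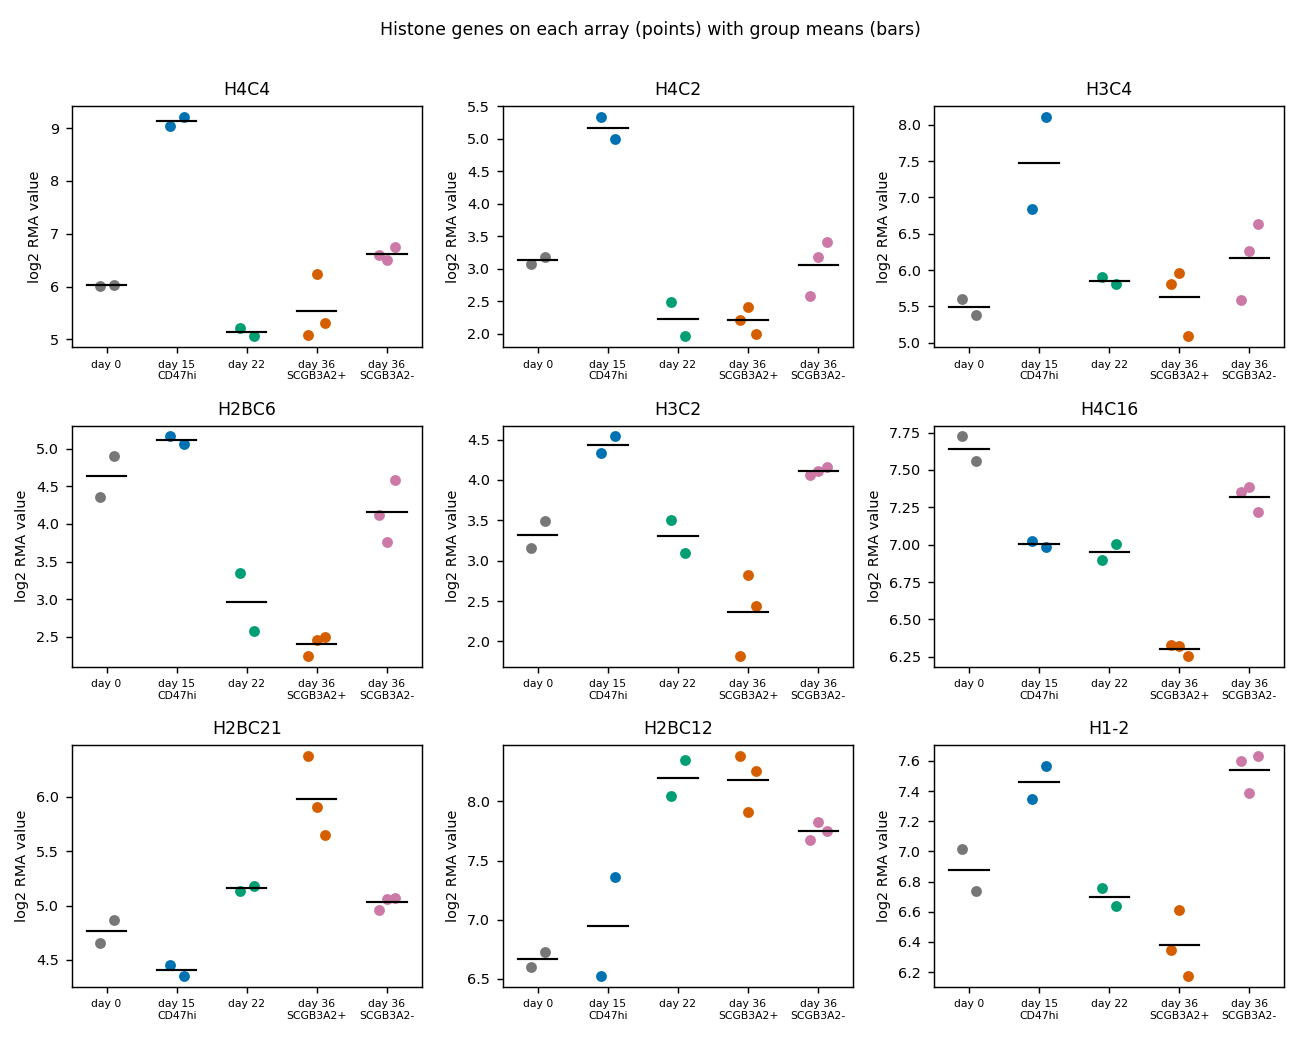
Log2 RMA values of 9 histone genes on each array (points) with group means (bars), each panel with its own axis. H4C4, H4C2 and H3C4 peak at day 15. H2BC6, H3C2, H4C16 and H1-2 are lowest in SCGB3A2+ cells, and H2BC21 is highest there.

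The comparison of the day 36 sorts asked how cells positive and negative for SCGB3A2 of the same age differ, and it called more members than any of the other 6 comparisons. In SCGB3A2+ cells 3 were higher and 27 lower, against 22.9% of all probe sets (10.1% higher and 12.8% lower). Of 18 markers of the stages, SCGB3A2 included, 8 were higher and 3 lower in SCGB3A2+ cells. NKX2-1, LIN28A and L1TD1 averaged 7.63, 2.21 and 4.41 in SCGB3A2+ cells, against 4.13, 5.48 and 6.94 in SCGB3A2- cells, and the part of these differences in the histone results was not tested. The median difference was -0.50 over the members and 0.02 over all probe sets. The decreases comprised 9 of 13 H2A, 6 of 10 H4, 6 of 11 H3, 3 of 17 H2B and 3 of 10 linker histone genes. At 6p22, 24 of 48 members were lower and 0 higher, while at 1q21 2 of 6 were lower and 2 higher. Of these calls, 19 of the 27 decreases and 2 of the 3 increases held under every alternative.

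Among H3 genes, H3C2 stood at 1.82, 2.83 and 2.44 in SCGB3A2+ cells, against 4.07, 4.11 and 4.16 in SCGB3A2- cells (-1.75 ± 0.22, adjusted p = 0.000176). H3C8 stood at 3.83, 4.84 and 5.07 in SCGB3A2+ cells, against 6.30, 6.12 and 6.47 in SCGB3A2- cells (-1.72 ± 0.33, adjusted p = 0.00265). In both genes SCGB3A2+ A was the lowest array. H3C11 (-1.38 ± 0.27) and H3C6 (-1.30 ± 0.19) were lower as well.

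Of the H4 genes, H4C16 had the smallest adjusted p of any member in this comparison. It stood at 6.33, 6.32 and 6.26 in SCGB3A2+ cells, against 7.36, 7.38 and 7.22 in SCGB3A2- cells (-1.02 ± 0.11, adjusted p = 4.77e-05). H4C13 stood at 5.55, 6.93 and 6.23 in SCGB3A2+ cells, against 7.96, 7.81 and 7.88 in SCGB3A2- cells (-1.65 ± 0.27, adjusted p = 0.00108). H4C5 (-1.44 ± 0.23), H4C3 (-1.40 ± 0.18), H4C4 (-1.07 ± 0.24) and H4C2 (-0.85 ± 0.22) were lower too. The last of these lost its call without SCGB3A2- B (adjusted p = 0.0577), SCGB3A2- C (0.0679) or SCGB3A2+ C (0.0559).

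Of the H2A and H2B genes, H2BC6 stood at 2.25, 2.46 and 2.50 in SCGB3A2+ cells, against 4.12, 3.77 and 4.58 in SCGB3A2- cells (-1.75 ± 0.24, adjusted p = 0.000297). H2AC1, known as a testis H2A gene, stood at 2.14, 2.78 and 3.21 in SCGB3A2+ cells, against 4.37, 4.42 and 4.16 in SCGB3A2- cells (-1.61 ± 0.26). H2AC1 was thus above the floor on all SCGB3A2- arrays, and also on SCGB3A2+ C and day 22 C (3.13). It was above it on none of the day 0 or day 15 arrays, where it ran from 1.70 to 2.40. H2AC21 differed by -1.36 ± 0.18 and H2AC6 by -0.44 ± 0.11. H2AC6 had adjusted p = 0.0514 without SCGB3A2- A, 0.0601 without SCGB3A2- C and 0.0603 without SCGB3A2+ A.

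Against this, H2BC21 stood at 6.37, 5.91 and 5.65 in SCGB3A2+ cells, against 4.96, 5.06 and 5.07 in SCGB3A2- cells (0.95 ± 0.16, adjusted p = 0.0015). H2BC18 averaged 3.86 ± 0.78 in SCGB3A2+ cells and 2.21 ± 0.37 in SCGB3A2- cells (SD, n = 3 each), a difference of 1.65 ± 0.37 (limma adjusted p = 0.00727), and its arrays did not overlap. Both are H2B genes of 1q21, and the SCGB3A2+ A array read highest in each. The antisense RNA H1-10-AS1 was higher by 0.52 ± 0.13 (adjusted p = 0.0125), and at 0.0542 without SCGB3A2- A, while H1-10 itself differed by 0.01 (adjusted p = 0.968). The strand that each probe set reads is not given in the sources used here, so the split between H1-10 and its antisense partner is uncertain.

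**Figure D4:**
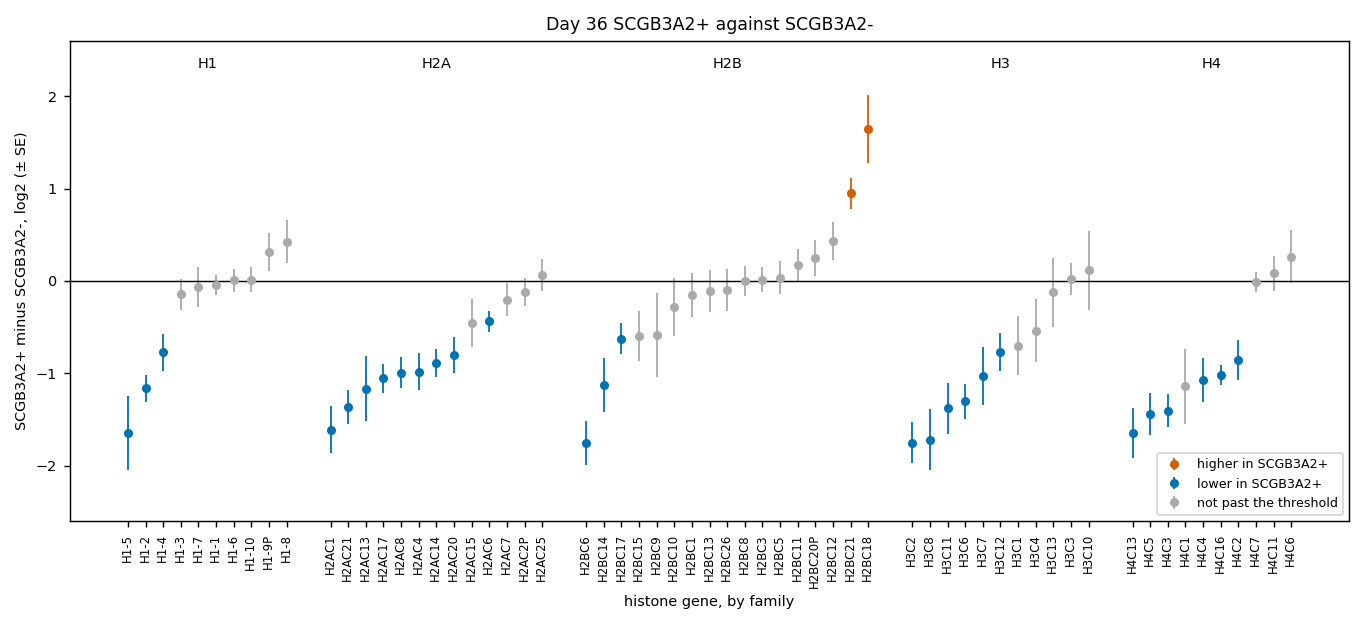
Differences in log2 value between SCGB3A2+ and SCGB3A2- cells at day 36 for the 61 histone genes, by family and in rising order, with limma's SE as bars. Called genes lie below 0 in every family, down to -1.75, and only H2BC21 and H2BC18 are called above 0.

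Members that lie head to head share a promoter region. There were 8 such divergent H2A and H2B pairs with starts less than 300 bases apart, and their H2A and H2B genes did not always move together between the day 36 sorts. In the pair printed above, H2BC21 was higher by 0.95 and H2AC20 was lower by 0.80 (SE 0.19, adjusted p = 0.0105) over a shared stretch of 235 bases. H2AC20 stood at 8.92, 9.35 and 9.33 in SCGB3A2+ cells, against 10.03, 9.76 and 10.19 in SCGB3A2- cells, so the arrays of both genes separate the sorts in opposite order. Both members were lower in the pairs of H2AC14 with H2BC14 (-0.89 and -1.13) and of H2AC17 with H2BC17 (-1.05 and -0.62). H2AC14 was at the floor in every group, averaging 1.32 in SCGB3A2+ and 2.20 in SCGB3A2- cells, so the size of its difference is uncertain. H2BC14 lost its call without SCGB3A2- C (adjusted p = 0.0574) or SCGB3A2+ A (0.0641), and H2BC17 without SCGB3A2- C (0.0971), SCGB3A2+ A (0.073) or SCGB3A2+ C (0.0822).

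In 3 pairs the H2A gene was called and its H2B partner was not: H2AC1 with H2BC1 (-1.61 and -0.15), H2AC8 with H2BC8 (-0.99 and 0.0025) and H2AC13 with H2BC13 (-1.16 and -0.11). That a partner missed the threshold does not show that the partners differ, which was not tested. H2BC1 was at the floor in every group. H2AC13 lost its call without any one of SCGB3A2- A, B or C or of SCGB3A2+ A or C (adjusted p of 0.0724 to 0.138). In the other 2 pairs, H2AC25 with H2BC26 and H2AC15 with H2BC15, neither gene was called.

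**Figure D5:**
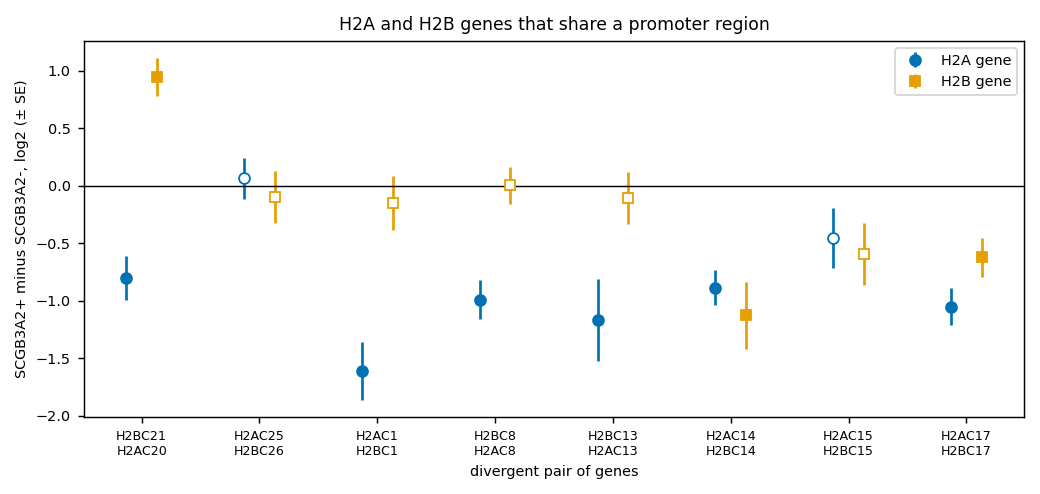
Differences in log2 value between SCGB3A2+ and SCGB3A2- cells for the H2A gene (blue circles) and the H2B gene (orange squares) of 8 divergent pairs, with limma's SE as bars, open symbols marking genes that were not called. The H2BC21 and H2AC20 pair lies on opposite sides of 0.

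Genes of DNA replication were compared between the same sorts. Of 41 S phase genes 35 were lower and 0 higher than in SCGB3A2- cells, with the replicative helicase subunit MCM7 at -1.64 ± 0.16 (adjusted p = 2.6e-05) and cyclin E1 (CCNE1) at -1.82 ± 0.18. The median over these 41 genes was 4.98, 5.41 and 5.23 on the SCGB3A2+ arrays A, B and C, against 6.26, 6.34 and 6.47 on the SCGB3A2- arrays. SCGB3A2+ A was thus the lowest array for S phase genes and for many histone genes. Leaving it out left 23 members called, which does not measure the part of that array in the results. The count of S phase genes was not repeated without it. MKI67 stood at 6.23, 7.06 and 6.96 in SCGB3A2+ cells, against 7.56, 7.67 and 7.79 in SCGB3A2- cells (-0.93, adjusted p = 0.0041). In these bulk samples, fewer cells in S phase and less histone RNA per cell cannot be told apart.

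Among the 22 processing genes 9 were lower and 0 higher in SCGB3A2+ cells, including LSM11, a part of the small ribonucleoprotein that guides stem-loop cleavage (-0.95 ± 0.18), and the nuclease CPSF3 (-0.72 ± 0.11), which cuts histone pre-mRNA. SLBP (-0.20, adjusted p = 0.311) and NPAT (-0.03, adjusted p = 0.917) did not pass. Of 30 chaperone genes 10 were lower and 0 higher, with ASF1B, which hands new H3 and H4 to deposition factors, at -1.30 ± 0.19 and CHAF1B at -1.14 ± 0.15. Of 13 cell cycle exit genes 3 were higher and 2 lower: the cell cycle inhibitor genes CDKN1B (0.98 ± 0.14) and CDKN2C (0.70 ± 0.22) and the pocket protein gene RBL2 (0.72 ± 0.14) against E2F5 (-0.93 ± 0.14) and CDKN1C (-1.16 ± 0.24). CDKN2C lost its call without SCGB3A2- A (adjusted p = 0.0548), SCGB3A2- B (0.0593), SCGB3A2- C (0.14), SCGB3A2+ B (0.104) or SCGB3A2+ C (0.125), with quantile normalization (0.0553), and when only the arrays compared were fitted (0.0505).

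Both sorts were also set against day 22, and these 2 comparisons share the day 22 arrays. In SCGB3A2- cells 6 members were higher and 0 lower than at day 22, against 7.9% of all probe sets (3.75% higher and 4.15% lower), with a median difference of 0.20 over the members. H4C4 stood at 6.60, 6.51 and 6.75 in SCGB3A2- cells, against 5.22 and 5.06 at day 22 (1.48 ± 0.27, adjusted p = 0.00565). The others were H2AC1 (1.30 ± 0.29), H2BC6 (1.19 ± 0.27), H4C3 (1.07 ± 0.20), H3C6 (0.87 ± 0.21) and H1-2 (0.84 ± 0.16). All 6 calls were lost without day 22 C, at adjusted p of 0.0573 to 0.204, while 17 members were called when only the arrays compared were fitted, 13 without day 0 A or day 0 C and 11 without SCGB3A2+ A. H2AC1 was also lost without day 22 A (adjusted p = 0.116) or SCGB3A2- B (0.0587), H2BC6 without SCGB3A2- C (0.0648), and H3C6 with the replicate block (0.0708) and without day 22 A (0.0949) or any one SCGB3A2- array (0.0593 to 0.0936).

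In SCGB3A2+ cells 1 member was higher and 3 lower than at day 22, against 14.5% of all probe sets (6.75% higher and 7.71% lower), with a median difference of -0.22 over the members. H2BC21 (0.82 ± 0.18, adjusted p = 0.0128) was higher. H4C16 (-0.65 ± 0.12, adjusted p = 0.0048), H3C2 (-0.94 ± 0.25) and H3C8 (-1.20 ± 0.37) were lower. All 4 calls were lost without day 22 C (adjusted p of 0.0621 to 0.19), and all but that of H4C16 without day 22 A (0.0681 to 0.176). H3C2 was also lost without SCGB3A2+ A (0.0599) and H3C8 in 9 of the 12 fits that left out 1 array. The count of members called was 8 without day 0 A or day 0 C, 7 without SCGB3A2+ B and 2 without SCGB3A2+ A, and 2 when only the arrays compared were fitted. Of the 41 S phase genes 18 were lower and 0 higher.

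H1-2 and H1-5 are replication-dependent linker histones of 6p22. H1-2 stood at 6.35, 6.61 and 6.18 in SCGB3A2+ cells, against 7.60, 7.39 and 7.63 in SCGB3A2- cells (-1.16 ± 0.14, adjusted p = 0.000159). H1-5 averaged 6.14 ± 0.24 in SCGB3A2+ cells and 7.79 ± 0.14 in SCGB3A2- cells (SD, n = 3 each), a difference of -1.64 ± 0.40 (limma adjusted p = 0.0108). Both were lower in every SCGB3A2+ array than in any SCGB3A2- array. H1-4 was lower by 0.77 (SE 0.20, adjusted p = 0.0164), at 0.0527 without SCGB3A2- C and 0.0703 without SCGB3A2+ A.

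H1-5 could not be placed against day 0, because its day 0 arrays stood at 7.73 and 5.56. In SCGB3A2+ cells it differed from day 0 by 0.59 without day 0 A (adjusted p = 0.0393) and by -1.59 without day 0 C (adjusted p = 0.000144). H1-10 was higher at day 15 than at day 0 (0.80 ± 0.16, adjusted p = 0.00286) and differed by 0.01 between the day 36 sorts. H1-1 and H1-3, also of 6p22, were at the floor in every group.

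Against day 0, 5 members were higher and 19 lower in SCGB3A2+ cells, where 40.6% of all probe sets were called (19% higher and 21.7% lower). In SCGB3A2- cells 13 were higher and 6 lower, where 36.6% of all were called (17.8% higher and 18.8% lower). Members at the floor in every group made up 4 of the 19 decreases in SCGB3A2+ cells and 2 of the 6 in SCGB3A2- cells. Both comparisons use the same day 0 arrays. Higher in SCGB3A2+ cells were H2BC12 (1.52 ± 0.23), H2BC21 (1.21 ± 0.18), H2BC18 (1.21 ± 0.42), H2BC5 (1.11 ± 0.20) and H1-10 (0.53 ± 0.15). H2BC18 lost its call without day 0 A (adjusted p = 0.143), day 0 C (0.0958) or SCGB3A2+ A (0.106), and H1-10 without day 0 C (0.101). The largest decreases there were those of H2BC6 (-2.23 ± 0.27), H2BC9 (-1.77 ± 0.51) and H2AC4 (-1.75 ± 0.23), and H2BC9 lost its call without day 0 A (0.0867), day 0 C (0.054) or SCGB3A2+ C (0.0554).

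H2BC12 stood at 8.38, 7.91 and 8.26 in SCGB3A2+ cells and 7.67, 7.82 and 7.75 in SCGB3A2- cells, against 6.60 and 6.73 at day 0. H2BC5 stood at 4.19, 4.62 and 4.83 in SCGB3A2+ cells and 4.57, 4.58 and 4.38 in SCGB3A2- cells, against 3.34 and 3.53 at day 0. Both genes were above day 0 on every day 36 array of either sort. In SCGB3A2- cells the largest increase over day 0 was that of H2AC1 (2.24 ± 0.29, adjusted p = 6.87e-05), and H2BC12 (1.09 ± 0.23) and H2BC5 (1.07 ± 0.20) were among the 13. Of 6 measured members known to give polyadenylated messages, 3 were higher and 2 lower in SCGB3A2+ cells than at day 0, and 1 was higher and 3 lower than in SCGB3A2- cells, so that list did not move as one.

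Replacement variants can also be made outside S phase and lie outside the rule. Of 14 measured, 3 were higher and 1 lower at day 15 than at day 0, where 31.5% of all probe sets were called. MACROH2A2 stood at 7.85 and 7.75 at day 15, against 4.04 and 3.54 at day 0 (4.01 ± 0.21, adjusted p = 1.14e-07), and MACROH2A1 differed by 2.11 ± 0.21. These are the macroH2A forms, known from silent chromatin. Between the day 36 sorts, MACROH2A2 (-1.32 ± 0.17), H2AX (-0.94 ± 0.22) and H2AZ1 (-0.77 ± 0.18) were lower in SCGB3A2+ cells and H2AJ was higher (0.70 ± 0.20), the last at adjusted p of 0.0632 to 0.0879 without any one of SCGB3A2- A, B or C or of SCGB3A2+ A or B. H3-3B, the gene of the replacement H3.3, differed by 0.03 between the sorts (adjusted p = 0.943) and by 0.35 between day 15 and day 0 (adjusted p = 0.257), or 0.74 without day 0 C (adjusted p = 0.00565).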

How the data were processed

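Arrays of 12 RUES2 samples were analysed from 1 deposited table with a log2 value for each of 23786 probe sets. Per the submitters' processing notes, the authors made these log2 values with RMA in affy 1.36.1 and R 2.15.1; the annotation release and genome build are not given in the sources used here. Array medians were 3.67 to 3.75, since the method evens out the distributions, and a change in total RNA per cell would not show. Arrays have no sequencing depth, and their number limits the precision. Sample titles gave each group and replicate letter, and 0 columns were left unused. Probe sets carry NCBI gene numbers, named through RefSeq (23093 matched). The rule's symbols number 95 in that table, 32 had no probe set here, and 1 member is not reported here.

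limma 3.58.1 in R 4.3.3 (lmFit, eBayes) was fitted to all 12 arrays with 1 mean per group, over all probe sets, with two-sided tests and Benjamini-Hochberg adjustment. The procedure was tested on simulated data. The members and gene lists were chosen with earlier results of these data known. Values on each array were given for the largest changes of each comparison and for a fixed set of members. Same-letter arrays of the day 36 sorts deviated together slightly (r = 0.104, 0.124 and 0.111), and so did those of day 22 and SCGB3A2- cells (0.126 and 0.114). For day 22 and SCGB3A2+ cells r was 0.0302 and 0.0584. The labels do not say what a letter marks, so it is uncertain whether the letters pair arrays. The printed tests have no block, and the letter as a block was an alternative. Promoters came from RefSeq GRCh38.p14; H2BC20P, H1-9P, H1-10-AS1, H2AC2P, H4C1, H4C3, H3C11 and H3C12 were not matched.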

Additional observations from a re-analysis of the deposited data

How the results depend on the processing

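The tests were repeated on the compared arrays alone, with array weights, with an intensity trend and robust variances, with the replicate letter as a block, after quantile normalization, without dim probe sets, and without each array in turn. Members called with 1 array left out numbered 35 to 44 in the F-test, 11 to 28 at day 15 against day 0, 9 to 24 at day 22 against day 15, 1 to 8 (SCGB3A2+) and 0 to 13 (SCGB3A2-) at day 36 against day 22, 23 to 31 between the day 36 sorts, and 24 to 28 (SCGB3A2+) and 14 to 21 (SCGB3A2-) at day 36 against day 0. With only the arrays compared, 12 members were called at day 15 against day 0, 2 in SCGB3A2+ cells and 17 in SCGB3A2- cells against day 22. For SCGB3A2- cells against day 22 the count was also 10 with the intensity trend, 16 with array weights and 10 without dim probe sets. The replicate block gave 12 members at day 22 against day 15 and left the count between the day 36 sorts at 30. The cause of these shifts was not tested.

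In each comparison only the called members, a fixed set of members and chosen genes of the lists were checked for a change of sign. Differences below are those that changed sign in at least 1 alternative among the genes checked. None of them was called with all arrays. H1-5 in SCGB3A2+ cells against day 0 was called in both directions, and 5 others were called in 1 fit each that left out 1 array: at day 15 against day 0 H1-5 and H2BC12 (adjusted p = 0.000121 without day 0 A and 0.0487 without day 15 B) and H3-3B (0.00565 without day 0 C), and against day 0 H1-4 in SCGB3A2+ cells (0.00971) and PCNA in SCGB3A2- cells (0.0458), both without day 0 A. With the replicate block, they were CCNA2 at day 22 against day 15 (0.0292), H2BC12 in SCGB3A2+ cells (0.0907), and H2BC5 (-0.0136) and SLBP (-0.0348) in SCGB3A2- cells against day 22. With quantile normalization they were SLBP in SCGB3A2- cells against day 22 (-0.0135), and NPAT (0.0149) and H3-3B (-0.0097) between the sorts, and with array weights H1-10 between the sorts (-0.0045). With 1 array left out, the ranges at day 15 against day 0 were -0.46 to 0.0652 for H2BC5, -0.14 to 0.70 for H2BC12, -0.28 to 1.89 for H1-5 and -0.0452 to 0.74 for H3-3B. At day 22 against day 15 they were -0.10 to 0.0027 for H4C16 and -0.48 to 0.0136 for H2AX. In SCGB3A2+ cells against day 22 they were -0.0405 to 0.28 for H2BC5, -0.17 to 0.14 for H2BC12 and -0.23 to 0.10 for CCNE2, and in SCGB3A2- cells -0.0067 to 0.0231 for SLBP. Between the sorts they were -0.0679 to 0.076 for H1-10, -0.10 to 0.21 for H2BC5, -0.0639 to 0.0094 for NPAT and -0.0273 to 0.0716 for H3-3B. In SCGB3A2+ cells against day 0 they were -0.19 to 0.71 for H1-4, -1.59 to 0.59 for H1-5 and -0.41 to 0.18 for PCNA, and in SCGB3A2- cells -0.19 to 0.0595 for H2AZ1 and -0.11 to 0.48 for PCNA.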
